A study of Mus musculus with 51 samples.

Results

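The regions described here are the H3K4me1 peaks that were lost, kept or gained as mouse astrogliogenic neural precursor cells (aNPC) became early astrocytes (eA). Members were chosen by comparing the aNPC H3K4me1 peak list with the eA H3K4me1 peak list on chromosomes 1 to 19. A peak of either list was called kept if it overlapped a peak of the other list by at least 1 bp, an aNPC peak without such an overlap was called lost, and an eA peak without one was called gained. These members are 331754 peaks, 150527 in aNPC and 181227 in eA, of 803622 peaks in the 6 H3K4me1 and H3K27ac lists of the series on all chromosomes.

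The study followed the astroglial differentiation of C57/BL-6 embryonic stem (ES) cells in culture with RNA-seq and with ChIP-seq of both histone marks, in 51 samples. aNPC were grown with N2, EGF and FGF-2, and eA are the same kind of cells 1 day after a change to DMEM with 1% FBS and leukemia inhibitory factor (LIF). Late astrocytes (lA), after 5 days in that medium, enter below only as an independent readout of the regions. Each stage had 2 replicates per mark, which the authors merged before calling peaks, so each stage is 1 list. No error between cultures can be given for any value here, and no test between stages was possible. All cells descend from ES cells in 1 culture system, and the medium of eA differs from that of aNPC in serum, LIF and growth factors together. Those changes and the change of cell state cannot be told apart. Peaks of 1 list share their library and are not replicates of a stage.

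H3K4me1 is a modification of histone H3 that MLL3 and MLL4 place at enhancers and on the flanks of active promoters. It can mark an enhancer before that enhancer is used, whereas H3K27ac marks enhancers and promoters that are in use. During astrogliogenesis, LIF signals through the receptor subunit gp130 to JAK kinases and STAT3, BMP ligands signal through SMAD proteins, and nuclear factor I (NFI) proteins act with SOX9 at glial genes.

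Sequences of some of the regions show what was gained and lost. Each is the 200 bp around a peak summit on the plus strand of mm9, in lower case, with matches on either strand to any of the 13 motifs that were searched in capitals. A match on the minus strand thus appears as the reverse complement of the motif's letters. Regions were chosen after their values were seen. The first sequence is at the gained peak with the highest −log10 q and the next come from the gained peaks with the highest −log10 q at the astrocyte genes Gfap and Nfia. In the Camta1 window the capitals are the E-box letters CAGATG, read on the minus strand. At Gfap, which encodes the astrocyte intermediate filament protein, the window holds no match. At Nfia, which encodes an NFI protein, the capitals are an AP-1 match.
Camta1, gained, chr4:151167462-151167661: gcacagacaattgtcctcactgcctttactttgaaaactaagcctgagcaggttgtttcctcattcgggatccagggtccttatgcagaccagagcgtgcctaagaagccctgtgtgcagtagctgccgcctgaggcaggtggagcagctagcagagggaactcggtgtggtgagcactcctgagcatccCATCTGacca
Gfap, gained, chr11:102761717-102761916: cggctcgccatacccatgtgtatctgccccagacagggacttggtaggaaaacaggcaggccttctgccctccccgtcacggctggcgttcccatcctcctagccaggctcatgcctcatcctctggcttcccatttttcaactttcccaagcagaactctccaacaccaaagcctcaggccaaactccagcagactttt
Nfia, gained, chr4:97605689-97605888: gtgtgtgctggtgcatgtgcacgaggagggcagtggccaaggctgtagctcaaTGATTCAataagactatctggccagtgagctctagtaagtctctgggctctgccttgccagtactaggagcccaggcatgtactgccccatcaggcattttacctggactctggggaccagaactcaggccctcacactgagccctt

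The AP-1 letters TGANTCA were found more often in gained than in lost windows, as given with the motif shares. Among the 10 windows with the highest −log10 q in each class, too few to compare, 0 gained and 1 lost window held them. These are the 6 windows, of the 10 gained peaks with an AP-1 match and the highest −log10 q, that lay outside exons and were assigned to a gene. All 6 overlapped an lA H3K4me1 peak and none overlapped aNPC H3K27ac. Those named for Lzts1, Sntg2, Blmh and Snx25 overlapped eA H3K27ac, and those named for B3galt1 and Npas2 did not. The Sntg2 window also holds a TEAD match and the Lzts1 window holds a pair of SOX matches.
Lzts1, gained, chr8:71638859-71639058: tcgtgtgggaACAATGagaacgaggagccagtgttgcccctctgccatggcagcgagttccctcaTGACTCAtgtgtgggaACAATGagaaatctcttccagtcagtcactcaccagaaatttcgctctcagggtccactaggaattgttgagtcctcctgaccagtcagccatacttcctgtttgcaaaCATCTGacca
Sntg2, gained, chr12:31011476-31011675: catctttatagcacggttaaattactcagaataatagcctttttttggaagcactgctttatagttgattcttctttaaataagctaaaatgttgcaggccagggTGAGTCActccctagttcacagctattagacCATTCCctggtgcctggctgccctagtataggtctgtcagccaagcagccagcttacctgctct
B3galt1, gained, chr2:67929605-67929804: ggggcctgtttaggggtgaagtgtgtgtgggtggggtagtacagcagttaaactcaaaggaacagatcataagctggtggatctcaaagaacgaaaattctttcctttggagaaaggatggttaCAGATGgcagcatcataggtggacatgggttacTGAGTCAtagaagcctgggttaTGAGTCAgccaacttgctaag
Npas2, gained, chr1:39286224-39286423: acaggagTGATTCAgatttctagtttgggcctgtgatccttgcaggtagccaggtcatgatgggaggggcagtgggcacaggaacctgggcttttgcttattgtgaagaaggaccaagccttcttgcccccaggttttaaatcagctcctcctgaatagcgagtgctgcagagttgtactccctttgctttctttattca
Blmh, gained, chr11:76767605-76767804: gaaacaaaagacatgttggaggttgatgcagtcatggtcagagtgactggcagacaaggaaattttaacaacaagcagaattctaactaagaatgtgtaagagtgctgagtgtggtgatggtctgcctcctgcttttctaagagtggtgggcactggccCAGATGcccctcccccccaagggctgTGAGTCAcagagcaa
Snx25, gained, chr8:47178147-47178346: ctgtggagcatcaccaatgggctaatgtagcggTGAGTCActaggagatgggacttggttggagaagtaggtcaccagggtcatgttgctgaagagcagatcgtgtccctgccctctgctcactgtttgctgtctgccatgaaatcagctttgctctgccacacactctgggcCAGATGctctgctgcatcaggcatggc

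The E-box letters CAGCTG were the reverse case, more frequent in lost than in gained windows. The 4 windows that follow are those with the highest −log10 q among lost peaks with this E-box that lay outside exons and were assigned to a gene. The windows at Slc39a14, Bptf and Pcdh9 overlapped aNPC H3K27ac and the one at Tbc1d4 did not. The Slc39a14 peak also overlapped eA H3K27ac, and the peaks at Slc39a14 and Bptf overlapped lA H3K4me1. The Pcdh9 window holds 2 copies of the E-box and a match to the LIM homeobox letters.
Slc39a14, lost, chr14:70736311-70736510: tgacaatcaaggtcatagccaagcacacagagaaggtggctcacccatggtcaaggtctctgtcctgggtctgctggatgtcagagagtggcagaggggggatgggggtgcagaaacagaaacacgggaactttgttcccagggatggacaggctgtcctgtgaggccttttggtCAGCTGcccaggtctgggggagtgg
Bptf, lost, chr11:107010376-107010575: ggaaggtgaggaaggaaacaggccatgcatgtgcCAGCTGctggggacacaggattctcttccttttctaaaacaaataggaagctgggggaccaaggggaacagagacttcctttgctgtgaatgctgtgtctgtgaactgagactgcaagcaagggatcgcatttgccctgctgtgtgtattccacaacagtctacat
Tbc1d4, lost, chr14:101928071-101928270: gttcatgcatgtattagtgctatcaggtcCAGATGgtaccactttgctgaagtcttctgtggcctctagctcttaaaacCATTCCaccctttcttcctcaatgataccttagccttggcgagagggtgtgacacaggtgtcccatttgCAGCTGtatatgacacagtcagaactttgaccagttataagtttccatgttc
Pcdh9, lost, chr14:93953098-93953297: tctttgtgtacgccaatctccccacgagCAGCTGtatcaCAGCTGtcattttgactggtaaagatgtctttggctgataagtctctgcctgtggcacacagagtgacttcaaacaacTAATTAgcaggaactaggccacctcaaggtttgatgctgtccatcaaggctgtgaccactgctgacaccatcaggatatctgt

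Most H3K4me1 regions of aNPC were still marked 1 day later, and the list of eA was longer. Of the aNPC peaks, 25131 were lost, which is 16.7% (95% Wilson interval 16.5 to 16.9, for counting error alone), and 125396 were kept. Of the eA peaks, 54431 were gained, which is 30.0% (29.8 to 30.2), and 126796 were kept. When a peak of the other list within 1 kb was enough to be kept, 9.05% were lost and 19.5% gained, and when the lost or gained peak itself had to have a −log10 q of at least 5, these were 10.8% and 20.9%. Lost peaks covered 6.92 Mb and gained peaks covered 18.9 Mb, against 82.8 Mb of kept regions in the aNPC list and 90.4 Mb in the eA list. Kept regions were largely the same bases, since 71.4 Mb were covered in both lists. That is 86.2% of the kept bases of aNPC and 78.9% of those of eA. Among kept aNPC peaks, 9842 (7.85%) met 2 or more eA peaks, and 8473 kept eA peaks (6.68%) met 2 or more aNPC peaks.

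The eA list was also read at the length of the aNPC list. When it was shortened to its 150527 peaks with the highest −log10 q, as many as the aNPC list holds, 34043 aNPC peaks were lost and 34920 eA peaks were gained. Those are 22.6% and 23.2% of their lists. Lists of equal length fix nearly equal totals, so these totals do not show what the longer eA list came from. The eA peaks used then had a −log10 q of at least 4.42, while the aNPC list reached down to 1.40, so an aNPC peak whose eA partner was weaker than that counted as lost. The depth of the merged libraries is unknown here, and its part in that difference was not tested.

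Lost and gained peaks were narrow and close to the detection threshold. The median width was 235 bp for lost and 282 bp for gained peaks, against 559 bp for kept aNPC and 613 bp for kept eA peaks. The overlap rule uses the same positions, and a wider peak is more easily kept, so this difference is partly built in. Strength was read as the −log10 q that the peak caller gave the summit, and here only within a list. In the aNPC list the median was 5.20 for lost and 13.0 for kept peaks, and in the eA list it was 5.49 for gained and 12.5 for kept peaks. Each list was sorted by this value into 5 bins of equal size. In the strongest bin of the aNPC list 0.216% of the peaks were lost and in the weakest 40.8%. The strongest bin of the eA list had 1.79% gained and the weakest 61.9%. Among the 30105 strongest aNPC peaks, 65 had no eA peak over them. Peaks at the edge of the overlap rule looked alike on either side. The 1220 aNPC peaks kept by at most 50 bp had a median −log10 q of 4.78, and the 1013 lost peaks that missed an eA peak by at most 50 bp had 4.86. For eA these were 4.91 in 1432 kept peaks and 5.00 in 1207 gained peaks.

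**Figure D1:**
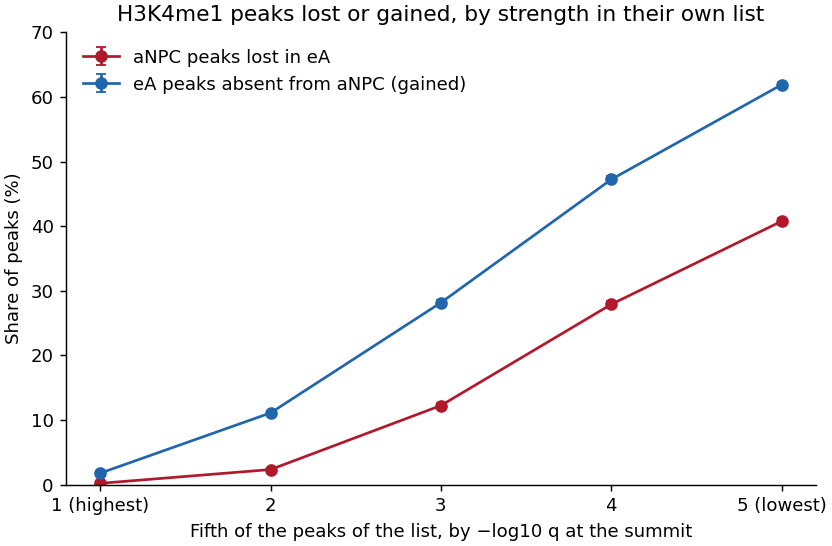
Share of aNPC H3K4me1 peaks lost (red) and of eA H3K4me1 peaks gained (blue), in percent, in 5 bins of equal size in order of −log10 q, with 95% Wilson intervals that cover counting error alone. The lost share runs from 0.216% to 40.8% and the gained share from 1.79% to 61.9% between the strongest and the weakest bin.

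Many of the changes lay close to a peak of the other list. The median distance from a lost peak to the nearest eA peak was 1289 bp, and 11505 lost peaks (45.8%) lay within 1 kb of one. Gained peaks lay farther out, a median of 2657 bp from the nearest aNPC peak, with 19036 (35.0%) within 1 kb and 10746 (19.7%) over 10 kb away. For lost peaks the share over 10 kb away was 12.2%. Gained peaks were measured to the shorter aNPC list and lost peaks to the longer eA list, which by itself lengthens the distances of gained peaks. The distances were not counted at equal list length. Counting kept regions alone as neighbours, 9544 of the 25131 lost peaks and 16908 of the 54431 gained peaks lay within 1 kb of one. In a count chosen after the data were seen, neighbouring gained peaks with no aNPC peak between them were joined into runs, and lost peaks likewise. Of the gained peaks, 45.0% stood alone and 27.4% were in runs of 3 or more, against 71.0% and 7.18% of lost peaks. Gained peaks were also more numerous than lost ones, and with lists of equal length the shares were 56.7% and 16.9% of gained against 59.8% and 13.8% of lost peaks. The longest gained run held 13 peaks over 112 kb nearest to Adamts15, which encodes a secreted protease of the matrix. In that run 10 peaks overlapped lA H3K4me1 and none overlapped eA H3K27ac. Another, of 12 peaks over 80.4 kb nearest to Rab11fip2, a trafficking protein of recycling endosomes, had 5 peaks with eA H3K27ac. The longest lost runs had 6 peaks, at Eif4e, the cap-binding translation factor, and at Parm1, to which 5 of its 6 were nearest.

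Gains were rare at promoters. A peak was placed by its centre, and a promoter was taken as the stretch between 1 kb before and 100 bp after a coding start site. Of the eA peaks at promoters 9.66% (9.12 to 10.2) were gained, against 26.2% in exons, 30.8% in introns and 32.5% between genes. Losses varied less with location, from 13.2% (12.6 to 13.9) at promoters to 17.6% between genes. Promoters therefore held 1496 lost peaks, 5.95% of all lost peaks, and 1045 gained peaks, 1.92% of all gained peaks. For kept peaks the promoter share was 7.83% in the aNPC list and 7.71% in the eA list. Introns held 12058 lost and 27237 gained peaks, and 10701 lost and 24365 gained peaks lay between genes. The median distance to the nearest start site was 30830 bp for lost, 34681 bp for gained and 25150 bp for kept aNPC peaks. Shares were similar over the chromosomes, from 15.6% to 18.3% lost and from 26.9% to 32.2% gained.

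**Figure D2:**
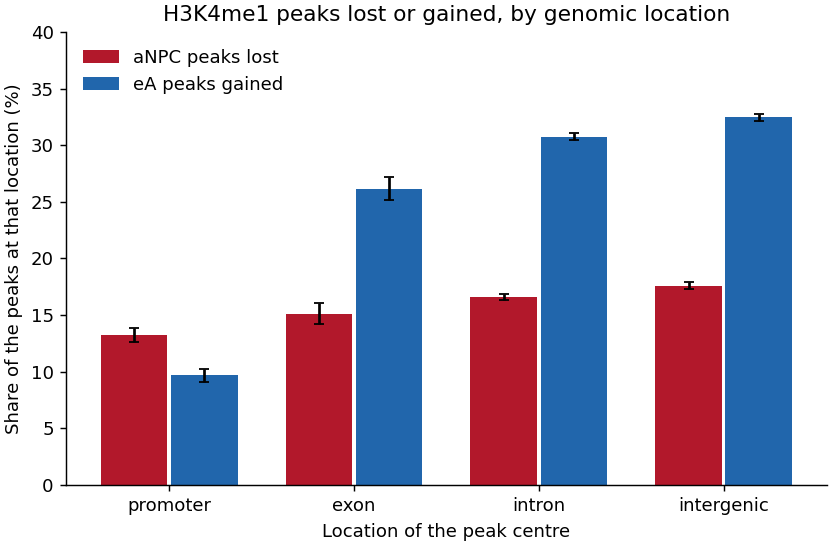
Share of the aNPC H3K4me1 peaks lost (red) and of the eA H3K4me1 peaks gained (blue), in percent of the peaks at each location, with 95% Wilson intervals that cover counting error alone. At promoters 9.66% of eA peaks were gained, the lowest of the 4 locations, and 32.5% were gained between genes.

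H3K27ac, which the choice of members did not use, overlapped a smaller share of lost and gained peaks than of kept ones. Of gained peaks, 4.59% overlapped aNPC H3K27ac, 13.9% overlapped eA H3K27ac and 22.7% overlapped lA H3K27ac, so the share was higher at each later stage. At lost peaks the shares were lower at each later stage, 18.0% in aNPC, 11.6% in eA and 9.96% in lA. Kept aNPC peaks had 43.2%, 44.4% and 42.3%. Lost and gained peaks were narrower than kept ones, and a narrow peak has fewer bases that can meet another list. The part of width in these shares, and in those of lA H3K4me1 below, was not tested. Counting both of the first stages, 6601 gained peaks (12.1%) had H3K27ac in eA and not in aNPC, and 45334 (83.3%) had it in neither. Among lost peaks 2659 (10.6%) had H3K27ac in aNPC and not in eA, and 19545 (77.8%) had it in neither.

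Strength moved with this difference. In the range of −log10 q from 5 to 10, 20.8% of lost and 21.1% of kept aNPC peaks overlapped aNPC H3K27ac. In the same range of the eA list, 14.4% of gained and 26.8% of kept peaks overlapped eA H3K27ac. Between 20 and 50 the shares were 61.8% of lost against 73.5% of kept aNPC peaks, and 66.0% of gained against 74.0% of kept eA peaks. H3K27ac was more frequent at promoters in the whole aNPC list, with 64.0% of promoter peaks in aNPC H3K27ac and 68.1% in eA H3K27ac against 37.0% and 36.6% outside promoters. For lost peaks these were 47.5% and 45.7% at promoters and 16.1% and 9.49% outside them.

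Gained regions were mostly found again at the later stage. Of gained peaks 63.6% overlapped an lA H3K4me1 peak, against 82.4% of kept eA peaks. Gained peaks with eA H3K27ac were in the lA list in 80.5% (79.6 to 81.4) of cases, and those without it in 60.8% (60.4 to 61.3). Strength moved with this too, since the median −log10 q was 5.94 for gained peaks in the lA list and 4.77 for the others. In the range of −log10 q from 5 to 10 the shares were 78.6% with eA H3K27ac and 64.9% without it, and between 20 and 50 they were 97.2% and 96.2%. Of lost peaks, 6216 (24.7%) overlapped an lA H3K4me1 peak, so that the mark was called at the first and last stage and not in eA. Their median −log10 q in aNPC was 5.40, and that of the other lost peaks was 5.13. The lA list held 203377 peaks on these chromosomes, more than either earlier list, and the part of its length in these shares was not tested.

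**Figure D3:**
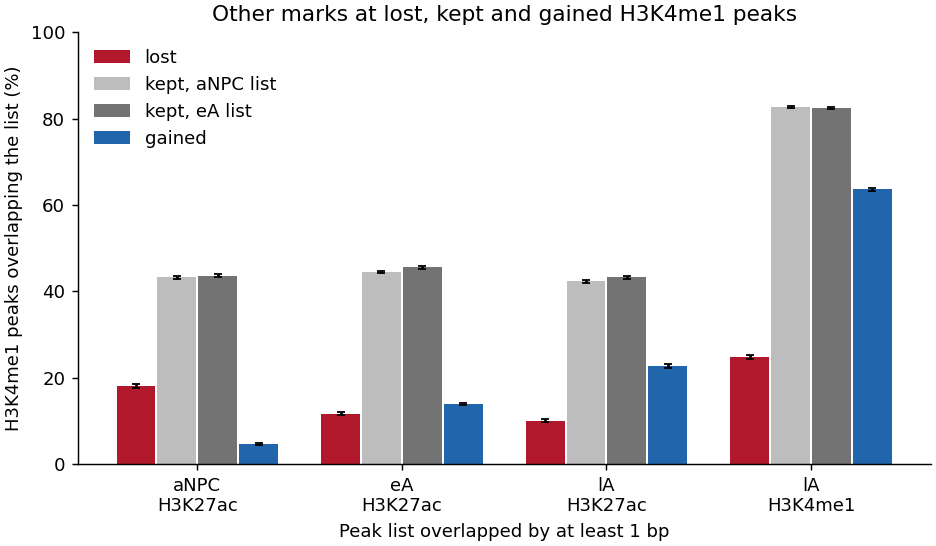
Share of lost, kept and gained H3K4me1 peaks, in percent, that overlap by at least 1 bp the H3K27ac list of each stage or the lA H3K4me1 list, with 95% Wilson intervals that cover counting error alone. Gained peaks go from 4.59% in aNPC H3K27ac to 22.7% in lA H3K27ac, and lost peaks go from 18.0% to 9.96%.

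The 10 strongest peaks of each class are described one by one, since they are too few to compare. Of the 10 gained peaks with the highest −log10 q, 8 overlapped eA H3K27ac, none overlapped aNPC H3K27ac and 10 overlapped lA H3K4me1. Of these, 3 lay within 1 kb of an aNPC peak. The first was in an intron of Camta1, a calmodulin-binding transcription activator, at chr4:151167240-151167760 (mm9), with a −log10 q of 47.5 and a fold of 8.62 over the local background. It lay 13145 bp from the nearest aNPC peak. The gained peak with the seventh highest value was between genes 6340 bp from the start site of Gip, which encodes an incretin hormone, at chr11:95879029-95880009, with a −log10 q of 40.2. Others were nearest to Sepn1, Gltscr1, Cdh23, Gpr111, Gm17723, Fam23a and Anpep.

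Of the 10 lost peaks with the highest −log10 q, 8 lay within 1 kb of an eA peak, 4 overlapped aNPC H3K27ac, 9 overlapped eA H3K27ac and 4 overlapped lA H3K4me1. In 5 of them the centre was within 1 kb of a start site. The first was in an intron of Pgs1, which encodes a cardiolipin synthesis enzyme, with a −log10 q of 43.7, 1068 bp from the nearest eA peak. The lost peak nearest to Slc39a14, a zinc and iron transporter gene whose window is shown above, ended 65 bp from an eA peak. The one at Tbc1d2b missed an eA peak by 52 bp. The remaining ones were nearest to Rfx2, BC022687, 4930546C10Rik, Clcf1, Gm10717, Nfasc and Zfyve28.

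Peaks were assigned to the coding gene with the nearest start site if they lay in a promoter, exon or intron of any coding gene, or within 50 kb of the start site. A peak inside a large gene can thus belong to a start site far away, and the named gene is a neighbour of the peak, not its shown target. At least 1 peak was assigned to 17422 coding genes. Of these, 66.4% had a gained peak and 49.4% had a lost peak, and 6743 had both. A gene was counted as a net gain if its gained peaks outnumbered its lost peaks by at least 3, and as a net loss in the reverse case. There were 3404 net gains (19.5%) and 347 net losses (1.99%). More gained than lost peaks were counted at 50.9% of the genes, and more lost than gained at 17%. With lists of equal length, whose totals balance by construction, net gains were 1391 genes (8.06%) and net losses 1213 (7.02%), and 32% of genes had more gained and 32.8% had more lost peaks. Gene counts at equal list length are given below for the main examples, whichever way they went.

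Most of the genes with the highest counts were long. Camta1, which spans 802 kb, had 62 gained and 8 lost peaks beside 56 kept ones. When the lists had equal length it had 47 gained and 9 lost peaks. Of its 62 gained peaks 7 overlapped eA H3K27ac and 33 overlapped lA H3K4me1, and 20 of its kept eA peaks had H3K27ac in eA and not in aNPC. Pde4d, a cAMP phosphodiesterase gene, had 49 gained and 15 lost peaks. Adamtsl1, a gene of the extracellular matrix, had 41 gained, 3 lost and 20 kept eA peaks. Foxp1, a forkhead transcription factor gene, had 40 gained and 6 lost peaks. The other genes with the most gained peaks were Nckap5, Cdh13, Nrp2, Lpp, Lrtm1 and Npas3, with 39 to 49. Few of these lay within 50 kb of the start site at Nrp2 (2 of 43), Npas3 (2 of 39), Cdh13 (3 of 44) and Lrtm1 (5 of 40). The rest of the 10 genes had from 14 (Lpp) to 31 (Camta1) gained peaks within 50 kb. At equal list length Npas3 had 24 gained and 39 lost peaks and Nckap5 had 29 and 31, so more were lost than gained at both. The counts were 28 and 20 at Pde4d, 26 and 17 at Cdh13, 27 and 15 at Nrp2, 27 and 18 at Lpp, 22 and 6 at Lrtm1, 25 and 7 at Foxp1 and 32 and 3 at Adamtsl1.

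Auts2, a neurodevelopmental regulator gene of 1106 kb, had the most lost peaks, 36, beside 98 kept and 18 gained eA peaks. Of the 98 kept eA peaks, 26 had H3K27ac in aNPC and not in eA, and 7 had it in eA and not in aNPC. Nckap5 and Npas3 were among the 10 genes with the most peaks in both directions, with 25 and 22 lost. Ptprd, a receptor tyrosine phosphatase gene, had 25 lost and 32 gained peaks. Tcf4, which encodes an E protein that pairs with proneural factors, had 22 lost and 26 gained peaks. Opcml, Arid1b, Cdkal1, Egln3 and Pcdh9 had 21 to 24 lost peaks. Few lost peaks lay within 50 kb of the start site at Opcml (1 of 24), Egln3 (2 of 21), Pcdh9 (2 of 21) and Npas3 (3 of 22). The rest of the 10 genes with the most lost peaks had from 7 (Auts2) to 11 (Tcf4) within 50 kb. The direction turned at equal list length at Ptprd (29 lost and 21 gained), Tcf4 (26 and 17), Arid1b (28 and 22) and Egln3 (24 and 12), and Auts2 had 45 lost and 9 gained.

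By share, among the 5171 genes with at least 10 peaks, Col8a1 came first for gains. Lost, kept eA and gained peaks all count toward the 10, so a gene with few kept peaks can pass through the peaks it is ranked on. This gene of a short-chain collagen had 13 gained peaks among its 14, and 10 of the 13 overlapped lA H3K4me1. It had 8 gained and 0 lost peaks at equal list length. It was followed by Tas1r2, Gpr171, Mesdc2, Cntn3, Gpr111, Ttc3, Usp7, Rab11fip2 and Ak5, with 75.0% to 83.3% gained. Of the 13 gained peaks of Mesdc2, 1 lay within 50 kb of its start site. Among the genes with the highest shares lost, Lrrn1, which encodes a neuronal leucine-rich repeat protein, had 8 lost of 15, one of them in its promoter with a −log10 q of 19.1. Mll3, a gene of an H3K4 methyltransferase, had 6 lost peaks of 11 and no gained peak. Atp2a3, Rpl21-ps10, Cp, Enc1, 1700108M19Rik, Dtd1 and Emcn also had 45.5% to 54.5% of their peaks lost.

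Gene lists were read against all assigned peaks, of which 16.3% of aNPC peaks were lost and 29.0% of eA peaks were gained. The median coding gene had 1 gained and 0 lost peaks, and 19.5% of genes were net gains and 1.99% net losses. In most of the lists the median gene had more gained peaks than that, and a gene with few peaks cannot reach a difference of 3. For the 24 astrocyte genes the shares were 18.0% lost and 29.1% gained, and 8 genes were net gains and 1 was a net loss. The list had a median of 3.5 gained and 2 lost peaks per gene. Of its 140 gained peaks 24.3% overlapped eA H3K27ac, against 14.4% of all assigned gained peaks. Nfia and Aqp4 held 19 of these 34 overlaps, and of the 89 gained peaks of the other genes 16.9% had one. The share was 25.4% for gained peaks of Hippo and TEAD genes, 21.0% for neural progenitor genes and 19.4% for oligodendrocyte lineage genes. It was lower for the remaining lists. Of the astrocyte genes 1 was a net gain and 5 were net losses at equal list length, against 8.06% and 7.02% of all genes.

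Among the NFI genes, Nfia had 35 gained, 12 lost and 59 kept eA peaks, Nfib had 20, 15 and 73, and Nfix had 5, 4 and 19. Of the 35 gained peaks of Nfia 10 overlapped eA H3K27ac and 29 overlapped lA H3K4me1. Aqp4, the gene of the astrocyte water channel, had 16 gained, 1 lost and 18 kept eA peaks, and Slc1a2, a glutamate transporter gene, had 12, 4 and 29. Gfap had 1 gained peak at chr11:102761684-102762263, 3460 bp upstream of its nearest coding start site and within the span that the annotation gives the gene, with a −log10 q of 13.7. It overlapped H3K27ac in eA and lA and not in aNPC. The other eA peaks of Gfap, one at its promoter, were kept, and the counts of Gfap were the same at equal list length. The other counts there were 18 gained and 17 lost at Nfia, 11 and 22 at Nfib, 2 and 6 at Nfix and 6 and 8 at Slc1a2. Aqp4 had 13 gained and 3 lost. Aldh1l1, a folate enzyme gene of astrocytes, had 6 gained and 4 lost peaks, Cd44, a hyaluronan receptor gene, 7 and 2 (5 and 6 at equal list length), and the calcium-binding protein gene S100b 2 and 4. Aldoc, a glycolytic enzyme gene of astrocytes, had 3 gained peaks and 1 lost promoter peak. Kcnj10, which encodes an inward rectifier potassium channel, was the net loss, with 4 lost and 1 gained. Glul, Apoe and Ndrg2 had kept peaks alone.

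For signalling through gp130, JAK and STAT, which LIF in the eA medium engages, 18.9% of aNPC peaks were lost and 32.6% of eA peaks were gained. Of these 18 genes 5 were net gains and none was a net loss, against 19.5% and 1.99% of all genes. Among receptors, Osmr had 7 gained, 0 lost and 4 kept peaks, Il6st, which encodes gp130, had 9, 2 and 8, and Il6ra had 8, 1 and 6. The LIF receptor gene Lifr had 6 gained and 6 lost. The kinase gene Jak1 had 15 gained and 3 lost peaks, and 5 of its 18 kept peaks had H3K27ac in eA and not in aNPC. Stat3 had 2 gained and 3 lost. Of the feedback genes, Socs1 had 6 gained and 3 lost, and Socs3 had 3 and 2. Of the 73 gained peaks of the list 15.1% overlapped eA H3K27ac, against 14.4% of all assigned gained peaks. There were 2 net gains and 1 net loss at equal list length, against 8.06% and 7.02% of all genes. Osmr then had 2 gained and 0 lost peaks, Il6st 6 and 4, Jak1 10 and 5, and Lifr 5 and 8.

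The BMP and TGF-beta genes included 15 net gains and 1 net loss of 26, against 19.5% and 1.99% of all genes. Of their aNPC peaks 14.3% were lost and of their eA peaks 29.0% were gained, against 16.3% and 29.0% of all assigned peaks. Their median was 5 gained and 2 lost peaks per gene, against 1 and 0 over all genes. A difference of 3 is reached more easily with more peaks, so the net counts do not show a higher share of gains. Among ligands, Bmp6 had 14 gained, 0 lost and 7 kept peaks. All 7 kept peaks of Bmp6 overlapped eA H3K27ac and none overlapped aNPC H3K27ac. Bmp2 had 5 gained and 0 lost, and Tgfb2 had 9 and 2. The receptor genes Bmpr1b, Tgfbr3 and Bmpr1a had 13, 12 and 10 gained peaks with 9, 3 and 4 lost. The inhibitory SMAD genes Smad7 and Smad6 had 15 and 8 gained with 5 and 0 lost. Skil, a repressor of SMAD signalling, was the net loss with 5 lost and 1 gained. With lists of equal length 8 genes were net gains and 3 were net losses, against 8.06% and 7.02% of all genes. Bmp6 then had 10 gained and 0 lost peaks, Smad7 10 and 5, Smad6 4 and 1, Bmpr1a 5 and 4, and Bmpr1b 10 and 10.

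Among transcription factor families, Runx2 had 20 gained and 9 lost peaks, Runx1 14 and 5, and Runx3 6 and 2, and their partner Cbfb had 1 and 1. The 4 Runx genes together had 35.3% of eA peaks gained, and 24.5% with lists of equal length. None was a net gain at equal list length, against 8.06% of all genes. Runx2 had 11 gained and 12 lost peaks there, Runx1 7 and 5, and Runx3 4 and 2. The 14 AP-1 and Atf genes had the lowest gained share of the 15 lists, 21.4%. Of their 25 gained peaks 1 overlapped eA H3K27ac, against 14.4% of all assigned gained peaks. Batf was the net loss of this list, with 3 lost and 0 gained. Atf3 had 5 gained and 2 lost, Fos had 3 and 3, and Junb had 4 and 2. Their kept eA peaks overlapped eA H3K27ac in 63.0% and aNPC H3K27ac in 46.7%. For the kept eA peaks of all assigned genes these were 47.9% and 44.4%. Of the 13 Hippo and TEAD genes, 5 were net gains and none was a net loss, against 19.5% and 1.99% of all genes. Amotl2, an inhibitor of YAP, had 12 gained and 2 lost peaks. In Amotl2, 7 of the 12 gained peaks overlapped eA H3K27ac, among them one at chr9:102669118-102669996 with a −log10 q of 24.2. At equal list length the Hippo and TEAD list had 1 net gain and 2 net losses, and the AP-1 and Atf list had 1 of each. Over all genes net gains were then 8.06% and net losses 7.02%. Amotl2 had 7 gained and 2 lost at equal list length.

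Neural progenitor and cell cycle genes had the highest shares lost of the 15 lists. Of the aNPC peaks of progenitor genes 21.1% were lost and of their eA peaks 26.9% were gained. Of 20 genes on these chromosomes 4 were net gains and 1 was a net loss, against 19.5% and 1.99% of all genes. Sox2, a progenitor transcription factor gene, was the net loss, with 8 lost, 5 gained and 12 kept eA peaks. Olig2, a factor of progenitors and oligodendrocytes, had 4 lost and 3 gained. The notch effector Hes1 had 4 lost and 3 gained. Msi2, an RNA-binding protein gene, had 27 gained and 7 lost, and Prom1 had 6 and 1. The shares at equal list length were 26.7% lost and 20.2% gained. The list then had 1 net gain and 4 net losses, against 8.06% and 7.02% of all genes. Sox2 had 10 lost and 1 gained there, Olig2 4 and 1, Hes1 4 and 2, Prom1 1 and 3, and Msi2 8 and 18.

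For cell cycle genes 21.8% of aNPC peaks were lost and 22.2% of eA peaks were gained. The net losses were Cdkn1a, an inhibitor of cyclin-dependent kinases, with 6 lost and 1 gained, Ccnd2, a D-type cyclin gene, with 5 and 1, and Myc, a growth factor-responsive regulator, with 4 and 1. Of 13 genes 4 were net gains and 3 were net losses, against 19.5% and 1.99% of all genes. There were 5 net losses and 0 net gains at equal list length, against 7.02% and 8.06% of all genes. FGF and EGF receptor and feedback genes, whose ligands are in the aNPC medium, had 17.3% lost and 25.2% gained. Fgfr2 had 14 gained and 6 lost, Spred2, an inhibitor of this pathway, had 10 and 1, and the phosphatase gene Dusp6 had 3 and 5. Of these 16 genes 4 were net gains and none was a net loss, against 19.5% and 1.99% of all genes. At equal list length 2 were net gains and 3 were net losses, against 8.06% and 7.02% of all genes. Dusp6 then had 7 lost and 1 gained. Of the 229 kept eA peaks of this list 20.1% had H3K27ac in aNPC and not in eA, and 6.11% the reverse. Over all genes these were 11.9% and 15.4%.

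Reactive and inflammatory genes had 12.3% of their aNPC peaks lost and 33.5% of their eA peaks gained. This was the lowest share lost of the 15 lists, but not at equal list length, where AP-1 and Atf genes had 15.4% and these genes 17.5%. Of 17 genes 14 had more gained than lost peaks and 1 had fewer, against 50.9% and 17% of all genes. The median was 2 gained and 0 lost. Lcn2, which encodes a secreted protein of reactive astrocytes, had no kept peak and 2 gained ones. One was at its promoter, at chr2:32242955-32243710, with a −log10 q of 17.1, and overlapped H3K27ac in eA and lA and not in aNPC. Steap4, a metalloreductase gene, had 6 gained and 0 lost, one of the gained at its promoter, and all 6 overlapped lA H3K4me1. Serpina3n had 5 gained and 0 lost, Ptx3 6 and 0, and Nfkb1, an NF-kappaB subunit gene, 11 and 2. With equal list length 27.8% were gained. Then 4 genes were net gains and 1 was a net loss, against 8.06% and 7.02% of all genes. More gained peaks were counted at 11 genes and more lost at 2, against 32% and 32.8% of all genes. Lcn2 had 2 gained peaks there, and Steap4 and Serpina3n had 3 each, Ptx3 5 with 2 lost, and Nfkb1 7 with 3 lost.

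Matrix and adhesion genes had 16.3% lost and 29.7% gained, and 8 of 24 were net gains with none a net loss, against 19.5% and 1.99% of all genes. Tnc, which encodes tenascin-C, had 11 gained, 0 lost and 11 kept eA peaks, and 7 of the 11 gained peaks overlapped lA H3K4me1. Thbs1, a thrombospondin gene, had 8 gained and 0 lost, Col5a1 13 and 4, Lamb1 6 and 0, and Lamc1 14 and 9. No peak was assigned to Fn1, the fibronectin gene, and 10 kept and 5 gained eA peaks were assigned to Apol7d, whose annotated span overlaps that of Fn1. There were 4 net gains and 2 net losses at equal list length, against 8.06% and 7.02% of all genes. Tnc had 5 gained and 1 lost there, Thbs1 6 and 2, Lamb1 4 and 1, and Lamc1 10 and 10.

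Genes of other cell types had gained and lost peaks as well. Proneural and neuronal genes had 18.1% lost and 27.5% gained, oligodendrocyte lineage genes 18.2% and 24.6%, pluripotency genes 15.5% and 27.3%, and microglia, endothelial, muscle and liver genes 18.4% and 26.3%. In the neuronal list Rbfox3, the NeuN gene, had 12 gained and 2 lost peaks, Map2 had 10 and 10, and Stmn2 had 6 and 0. Neurog1 had 1 gained and 0 lost, Neurog2 had 0 and 1, Neurod1 had 2 and 0, and Neurod4 had 1 and 2. In the neuronal list 6 of 20 genes were net gains and none was a net loss, against 19.5% and 1.99% of all genes. At equal list length 2 of them were net gains and 1 was a net loss, against 8.06% and 7.02% of all genes. Rbfox3 then had 6 gained and 2 lost, Map2 5 and 13, and Stmn2 4 and 0. The muscle gene Myod1 had 5 lost and 1 gained. As a check of the labelled cell type, the eA peaks of a few markers per cell type were counted, for astrocytes Gfap, Aqp4, S100b, Aldh1l1, Slc1a3 and Gja1. At least 1 eA peak was assigned to 6 of 6 astrocyte markers, to 4 of 4 oligodendrocyte markers, to 3 of 3 endothelial markers and to 3 of 4 microglia markers. H3K27ac differed more, lying at 61.8% of the 102 eA peaks of astrocyte markers, 31.9% of 69 at progenitor markers, 30.2% of 96 at neuronal markers, 27.5% of 40 at oligodendrocyte markers, 29.4% of 17 at microglia markers and 11.5% of 26 at endothelial markers. At muscle markers 3 of 15 eA peaks had it. Over the longer lists the contrast was smaller, with H3K27ac at 47.6% of the eA peaks of astrocyte genes and 40.2% of those of progenitor genes. It was at 28.8% for neuronal genes and 38.2% for all genes. AP-1 and Atf genes, at 50.4%, and Hippo and TEAD genes, at 48.9%, lay above the astrocyte genes. Of the kept eA peaks of astrocyte genes 57.2% overlapped eA H3K27ac, and 50.7% overlapped aNPC H3K27ac. Of 8 eA peaks at pluripotency markers 5 had eA H3K27ac, all at 1 of 3 genes.

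**Figure D4:**
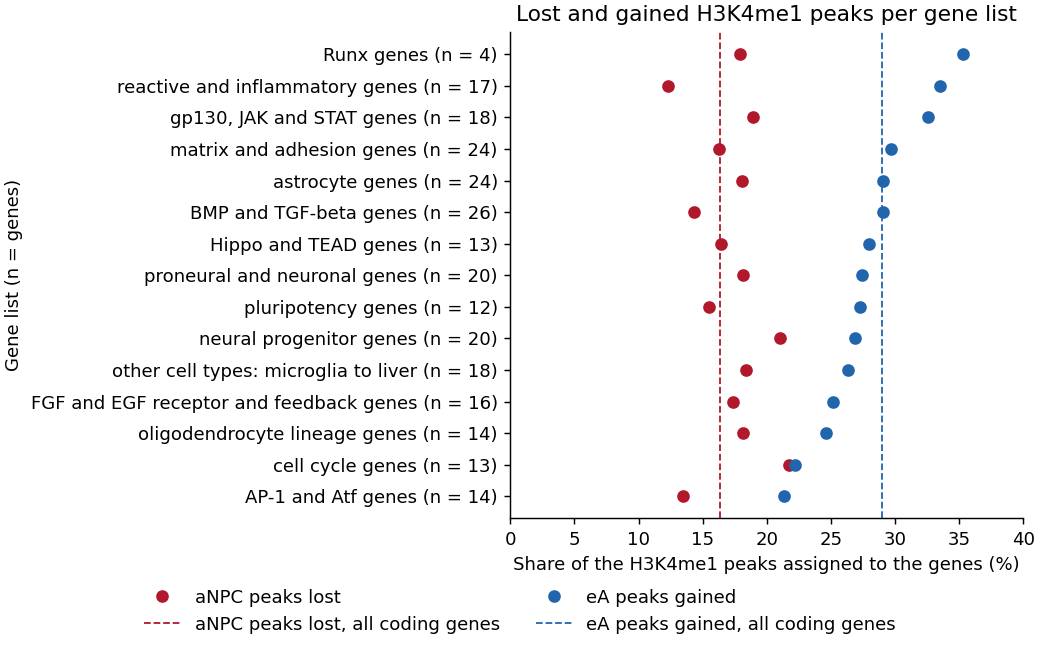
Share of the aNPC H3K4me1 peaks assigned to the genes of each list that were lost (red) and of their eA peaks that were gained (blue), in percent, with broken lines for all coding genes (16.3% and 29.0%). With the lists as deposited, the gained share runs from 21.4% for AP-1 and Atf genes to 35.3% for Runx genes, and the lost share from 12.3% for reactive to 21.8% for cell cycle genes.

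Motifs were counted as exact matches on either strand in the 200 bp around the summit, as a description of the sequence and not of binding. The letters were TTGGCA for the NF1 half-site, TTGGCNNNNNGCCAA for the NF1 full site, TGANTCA for AP-1, TGACGTC for CRE, TGTGGTT for RUNX and TTCCNGGAA for STAT. They were ACAATG for SOX, GGAATG for TEAD, CAGATG and CAGCTG for 2 E-boxes, TAATTA for LIM homeobox, ATGCAAA for POU and GGGCGGG for SP/KLF. A full NF1 site can hold the half-site when the next base allows it, and matches to different letters can share bases where they adjoin. As background, all adjoining 200 bp windows of chromosomes 1 to 19 without unknown bases were searched.

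AP-1 letters were in 10.9% (10.6 to 11.1) of gained and 5.84% (5.56 to 6.14) of lost windows, against 5.96% of all windows. Kept regions had 7.52% around their aNPC summits and 6.31% around their eA summits. This difference between summits of largely the same regions is smaller than that between gained and lost peaks. Among windows with 40 to 50% GC the AP-1 shares were 11.5% in gained, 6.44% in lost and 6.28% in all windows. With a −log10 q of at least 10 they were 11.8% in gained and 6.13% in lost windows. At equal list length they were 11.2% in gained and 6.07% in lost windows. Gained peaks had more AP-1 matches without eA H3K27ac (11.2%) than with it (8.96%). They also had more when absent from the lA list (12.1%) than when present (10.2%).

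TEAD letters followed, in 14.6% of gained, 11.3% of lost and 10.8% of all windows. Here gained peaks found again in the lA list had 16.2% and the others 11.7%. STAT letters were in 1.10% (1.01 to 1.19) of gained, 0.549% (0.465 to 0.648) of lost and 0.507% of all windows. The NF1 half-site was in 17.0% of gained, 16.3% of lost and 9.83% of all windows, so both classes held it more often than the genome did and differed from each other by less than the aNPC and eA summits of kept regions, which had 17.5% and 15.6%. RUNX letters were in 4.55% of gained, 4.24% of lost and 4.73% of all windows.

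Both E-boxes had the other direction. CAGCTG was in 17.8% (17.3 to 18.2) of lost and 13.1% (12.8 to 13.4) of gained windows, against 7.37% of all windows, and kept regions had 16.7% and 16.3%. Within 40 to 50% GC the shares were 15.2% in lost and 10.8% in gained windows. CAGATG was in 19.8% of lost and 17.0% of gained windows. SOX letters were in 13.4% of lost and 12.7% of gained windows. SP/KLF letters were in 2.43% of lost and 1.64% of gained windows, which had a mean of 2.77 and 2.19 CpG. Within 40 to 50% GC the SP/KLF shares were 0.775% and 0.722%.

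**Figure D5:**
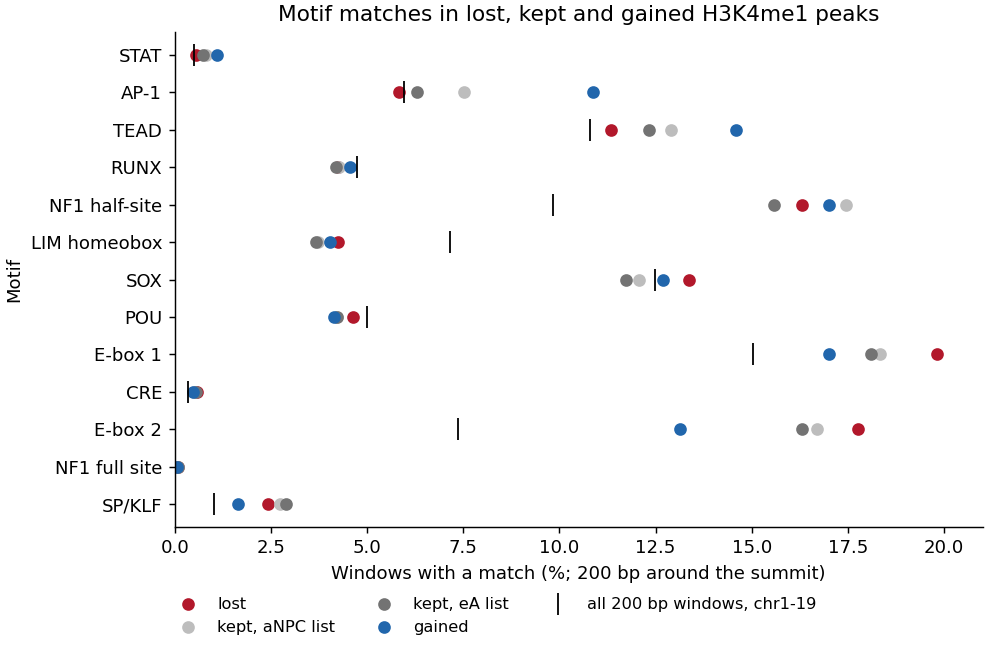
Share of 200 bp windows around the summit with at least 1 match to each motif, in percent, for lost (red), kept (light grey for the aNPC list, dark grey for the eA list) and gained (blue) peaks, with black ticks for all 200 bp windows of chromosomes 1 to 19. E-box 1 is CAGATG and E-box 2 is CAGCTG. AP-1 is at 10.9% in gained and 5.84% in lost windows, and E-box 2 is at 13.1% and 17.8%.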

How the data were processed

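ChIP-seq of H3K4me1 and H3K27ac in aNPC, eA and lA cells was analysed, as peak lists. Per the labels and the methods of the study, the authors kept reads that Bowtie placed once on mm9, pooled both replicates of a stage with SAMtools 0.1.19 (2 per stage and mark) and ran MACS2 with default settings and no input. Merging, and the lack of an input, leave no error between cultures and no measured background. The deposited lists give each peak its position, its fold over the local background (a ratio) and the −log10 of its q-value, as the authors' peak caller wrote them. Both values grow with signal, and −log10 q grows with depth. They were read within a list alone. Total read numbers were not used here, so the depth is unknown and precision is given by 95% Wilson intervals, which cover counting error alone.

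Peaks of chromosomes 1 to 19 were compared by overlap of at least 1 bp with Python 3.11.15 and NumPy 2.4.6, and plotted with Matplotlib 3.10.9. Peak centres were set against the coding genes of GENCODE M1 on mm9, as promoter, exon, intron or intergenic. The procedure was tested on simulated data with known overlaps. Genes named by rank are the 10 with the most gained, the 10 with the most lost and, with at least 10 peaks, the 10 with the highest share of each, and the neighbours of the 10 strongest gained and lost peaks. Genes of 15 lists are named as examples, and some genes that these rules name are not reported here. The members, the lists and the tests were chosen with earlier results of these data known. Runs of peaks, the printed sequences and 1 alternative were chosen after these data were seen. The alternatives were a −log10 q of at least 5, lists of equal length, other overlap rules, another promoter, another limit of gene assignment and a motif window of 500 bp. No test between stages was made.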

Additional observations from a re-analysis of the deposited data

Results flagged for a closer look

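Chromosomes outside 1 to 19 were not part of the comparison and carried H3K4me1 peaks as well. On chromosome X, 25.0% of the aNPC peaks (917 of 3674, interval 23.6 to 26.4) were lost and 31.8% of the eA peaks (1341 of 4214, interval 30.4 to 33.2) were gained. The lost share was above the highest of chromosomes 1 to 19, which was 18.3%, and the gained share was within their range. The mitochondrial chromosome, which has no histones, held 5 peaks in the aNPC list and 4 in the eA list.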

How the results depend on the processing

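Of 80 values under alternatives, 27 moved by less than their interval or, for counts of genes, by less than 1.5 times, and none of the others was tested for its cause. In the order a −log10 q minimum of 5 in all lists, equal length, overlap of 50% of the shorter peak, summit inside the other peak, peaks within 1 kb kept, and a −log10 q minimum of 5 for the lost or gained peak alone (chosen after the data were seen), the lost share was 17.8%, 22.6%, 19.4%, 22.3%, 9.05% and 10.8%, and the gained share was 27.9%, 23.2%, 32.8%, 37.4%, 19.5% and 20.9%. In that order H3K27ac of the stage was at 15.3%, 18.1%, 15.0%, 17.4%, 11.8% and 19.8% of gained peaks. At lost peaks it was 20.8%, 18.6%, 20.1%, 10.5% and 24.2%, leaving out the 50% overlap. The promoter share of lost peaks was 7.55% with a −log10 q minimum of 5 in all lists, 7.65% with it for the lost peak alone, 3.74% with the 1 kb rule and 9.59% with promoters of 1 kb on either side. That of gained peaks was 2.17% with a −log10 q minimum of 5 in all lists, 2.08% with 50% overlap, 2.19% by summit, 1.37% with the 1 kb rule and 3.27% with the wider promoter. Net gains were 2268 genes with a −log10 q minimum of 5 in all lists, 1391 with equal length and 1912 with that minimum for the changed peak alone. Net losses were 1213 with equal length, 190 with the 1 kb rule and 189 with a −log10 q minimum of 5 for the changed peak alone. AP-1 shares of gained windows were 11.2% with equal length, 10.5% with 50% overlap, 10.2% by summit, 12.3% with the 1 kb rule, 11.2% with a −log10 q minimum of 5 for the changed peak alone and 24.5% in 500 bp. AP-1 shares of lost windows were 6.33% by summit and 13.6% in 500 bp. The NF1 half-site was at 17.0%, 16.8%, 17.5% and 31.8% of lost windows with a −log10 q minimum of 5 in all lists, equal length, the 1 kb rule and 500 bp, and at 16.6%, 18.9% and 35.0% of gained windows by summit, with the 1 kb rule and with 500 bp. In each alternative run, the AP-1 share was higher in gained than in lost windows and the promoter share was higher in lost than in gained peaks. No paired analysis was possible because the replicates of a stage are merged in 1 list, and for the same reason no replicate could be left out. Unknown depth limits every comparison of list lengths.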

Other observations

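Some runs of gained peaks held H3K27ac and others did not. Nearest to Lmo4, which encodes a LIM-only transcriptional cofactor, 11 gained peaks over 133 kb had no aNPC peak between them, and 5 of them overlapped eA H3K27ac. A run of 11 peaks, 10 of them nearest to Col8a1, had 2 with eA H3K27ac and 10 in the lA H3K4me1 list. A run of 12 gained peaks spread over 1609 kb, with 8 of them nearest to Rab28, a small GTPase gene, had none with eA H3K27ac and 9 in the lA H3K4me1 list. The lost run of 6 peaks at Eif4e covered 18.7 kb, and none of its peaks overlapped aNPC H3K27ac or lA H3K4me1. These runs were chosen after the data were seen.

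Among the 10 strongest lost peaks, the one nearest to Gm10717 at chr9:3027656-3027926 had the lowest fold over the local background, 2.80, with a −log10 q of 34.3. The other 9 had folds of 4.08 to 10.4.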
